A study of Mus musculus with 6 samples.

Results

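The mitochondrial carriers of the SLC25 family were examined in primary neonatal mouse cardiomyocytes (CMs) that were kept for 96 h with α-ketoglutarate (αKG) or with solvent. Members were all protein-coding genes of the deposited table whose symbol begins with *Slc25a*, with no filter on expression, which gave 43 of 20066 genes, of which 14257 were protein coding. The GENCODE M21 annotation holds 47 protein-coding genes with such a symbol, and *Slc25a21*, *Slc25a41*, *Slc25a48* and *Slc25a54* were not analysed here. All CMs came from C57BL/6 pups aged P0–1, and the labels name no other allele in either group. The sarcomere gene *Tnnt2*, a defining CM marker, had 2812 to 3681 normalized counts per library. The 3 control libraries received dimethylsulfoxide (DMSO) and the 3 treated libraries cell-permeable αKG, at 100 µM per the labels, whereas the study's methods give another concentration for octyl-αKG. For neonatal CM experiments the study's methods describe a sample as 1 CM isolation from hearts that were pooled. The labels do not state this for the libraries, and the p-values measure the spread between them. Total RNA was sequenced with a stranded kit, and values are read counts normalized with DESeq2 and rounded, termed normalized counts below.

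SLC25 proteins sit mostly in the inner mitochondrial membrane and exchange a solute of the matrix for a solute of the cytosol. Nucleotides, phosphate, di- and tricarboxylates, amino acids, acylcarnitines, vitamins and metals cross in this way, and in heart muscle the ADP/ATP and phosphate carriers serve oxidative phosphorylation. αKG itself is a substrate of the oxoglutarate carrier *Slc25a11*, which trades it for malate and, together with the aspartate/glutamate carriers *Slc25a12* and *Slc25a13*, forms the membrane part of the malate-aspartate shuttle.

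The start-site windows of 3 members are shown, because *Slc25a34* and *Slc25a38* were the only members past the test and *Slc25a11* carries the compound that was added. Each runs 5′ to 3′ on the gene's own strand over 300 bases, 250 before and 50 after a RefSeq start (GRCm38.p6), at chr4:141623785-141624084 (minus strand), chr9:120110132-120110431 (plus strand) and chr11:70646990-70647289 (minus strand). Capitals mark AGGTCA (a nuclear receptor half-site), GGGCGG (a GC box) and CCAAT, searched on both strands; a match on the opposite strand appears as its reverse complement.
Slc25a34: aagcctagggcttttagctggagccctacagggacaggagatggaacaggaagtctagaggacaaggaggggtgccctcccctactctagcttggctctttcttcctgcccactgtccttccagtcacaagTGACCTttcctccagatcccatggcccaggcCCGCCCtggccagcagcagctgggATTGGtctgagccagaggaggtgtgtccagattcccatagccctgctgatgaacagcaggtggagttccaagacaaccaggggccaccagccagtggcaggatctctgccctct
Slc25a38: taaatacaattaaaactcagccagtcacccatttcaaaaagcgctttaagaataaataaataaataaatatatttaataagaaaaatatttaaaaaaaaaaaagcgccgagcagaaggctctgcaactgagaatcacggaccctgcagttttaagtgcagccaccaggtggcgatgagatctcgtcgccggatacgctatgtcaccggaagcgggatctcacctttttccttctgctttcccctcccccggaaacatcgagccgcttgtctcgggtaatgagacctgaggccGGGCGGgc
Slc25a11: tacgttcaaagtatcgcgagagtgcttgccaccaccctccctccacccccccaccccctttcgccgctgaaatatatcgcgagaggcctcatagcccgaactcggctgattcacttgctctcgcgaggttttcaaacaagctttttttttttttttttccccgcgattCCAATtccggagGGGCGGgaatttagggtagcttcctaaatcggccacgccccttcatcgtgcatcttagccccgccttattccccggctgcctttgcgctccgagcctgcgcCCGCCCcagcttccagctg

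AGGTCA was present in the window of *Slc25a34* and in neither of the other two. Of the 43 members, 33 had at least 1 RefSeq window (42 windows), and AGGTCA was found in 9.52% of those 42 against 16.3% of all 32851 windows. GC boxes were in 88.1% of member windows against 35.7% of all windows, and CCAAT was in 21 of 42 against 37.4%. The E-box CACGTG was in 8 of 42 member windows against 7.15% of all windows, among them windows of *Slc25a1*, *Slc25a13* and *Slc25a36*. These matches describe letters in a window and not occupied sites.

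At the level of libraries, αKG replicate 3 stood closer to the controls than to its own group. Over all genes its mean correlation on the log2 scale was 0.979 with the DMSO libraries and 0.962 with the other two αKG libraries, whereas αKG replicates 1 and 2 correlated at 0.970 with their own group and at 0.956 and 0.958 with DMSO. The DMSO libraries correlated with one another at 0.983 to 0.984. Depth, estimated from the value of a single read in each column, was between 3726069 and 4427587 reads per library. Tests below used all 6 libraries unless the text states that αKG replicate 3 was left out.

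Among the 43 members, 1 passed the test as higher and 1 as lower after αKG treatment. *Slc25a34*, a carrier without an established substrate that is placed near the carboxylate carriers by sequence likeness, increased, and *Slc25a38*, which brings glycine into the matrix for haem synthesis, decreased. The test was limma on log2(normalized count + 1) with Benjamini-Hochberg adjustment over all 20066 genes, and it called 2 of 43 members (4.65%) against 3.78% of all genes, so the share of members was near the background. Higher calls made up 2.83% and lower calls 0.952% of all genes. At an unadjusted p under 0.05, 13 members (30.2%), 6 higher and 7 lower, compared with 28.1% of all genes and 30.9% of protein-coding genes. The groups did not overlap for 9 members (20.9%), 4 higher and 5 lower, against 28.3% of all genes and 32.8% of protein-coding genes. The median log2 fold change was −0.05 over the members, 0.04 over all genes and −0.03 over protein-coding genes.

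Without αKG replicate 3, 19 of 43 members (44.2%) passed, 5 higher and 14 lower, against 37.2% of all genes (19.3% higher, 17.9% lower). All members are protein coding, and among protein-coding genes 42.1% passed, 2557 higher and 3450 lower of 14257, so the share of members was near that background. Of the 19 members, 17 had not passed with all libraries, 4 of them higher and 13 lower. In all 17, αKG replicates 1 and 2 lay on the same side of the DMSO mean, and αKG replicate 3 was nearest to that mean in 16 and inside the DMSO range in 9. Passing only without αKG replicate 3 favours this pattern, so these 17 are no separate evidence for it. Over all 43 members, αKG replicate 3 was the nearest of the 3 in 28 (65.1%), against 55.4% of all genes, and inside the DMSO range in 21 (48.8%), against 45.7% of all genes. αKG replicate 1 exceeded every DMSO library for 18 members and was below every one for 20, while αKG replicate 2 did so for 13 and 22 members, and αKG replicate 3 for 13 and 9. The share of members outside the DMSO range was thus 88.4%, 81.4% and 51.2% in αKG replicates 1, 2 and 3, and the share of all genes was 74.6%, 72.5% and 54.3%. Among protein-coding genes that share was 79.4%, 77.3% and 61.3%. The median shift of the members from the DMSO mean was −0.06, −0.17 and 0.02 on the log2 scale in αKG replicates 1, 2 and 3.

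**Figure D1:**
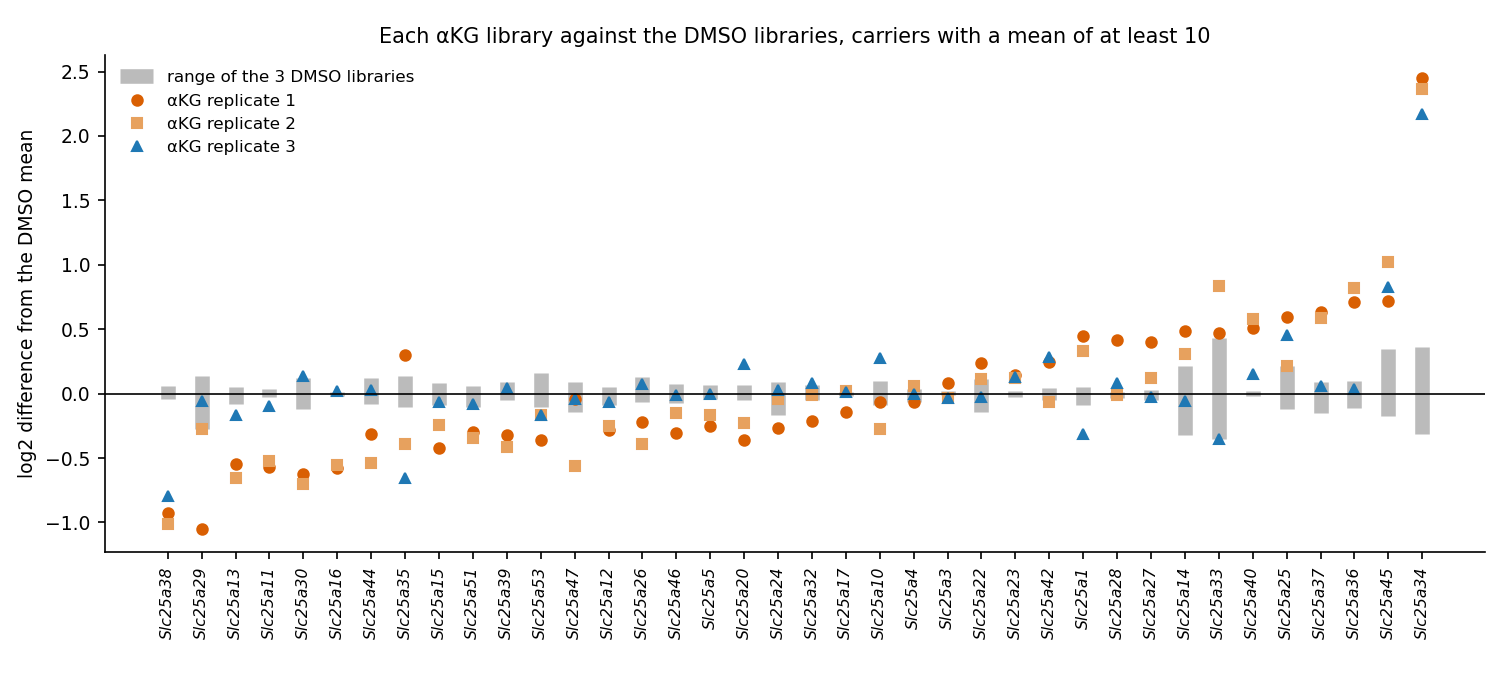
Shift of each SLC25 member from its DMSO mean on the log2(normalized count + 1) scale, for carriers averaging 10 or more, in αKG replicates 1 (circle), 2 (square) and 3 (triangle), with the grey bar giving the range of the 3 DMSO libraries. For *Slc25a34* and *Slc25a38* the triangle lies with the other two symbols, whereas for *Slc25a16*, *Slc25a30*, *Slc25a36* and *Slc25a37* it lies near 0.

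*Slc25a34* (ENSMUSG00000040740, GRCm38 chr4:141618824-141623821, minus strand) had the largest log2 fold change in the family. It had 7, 5 and 4 normalized counts in the DMSO libraries and 33, 31 and 27 in the αKG libraries. Every αKG library, replicate 3 included, was above every DMSO library, and the means were 5.33 ± 1.53 and 30.3 ± 3.06 (SD, n = 3 each). The log2 fold change was 2.33 ± 0.32 (SE; adjusted p = 0.0108, limma), a 5.03-fold rise on the scale of counts plus 1. In bulk RNA a change in the number of cells of a type and a change in RNA per cell cannot be told apart. These values correspond to about 4 to 7 reads per DMSO library and 28 to 31 per αKG library, so counting error is large beside the DMSO values. The log2 fold change stayed between 1.78 and 2.52 under the 15 alternative settings, with adjusted p from 0.00238 to 0.255. The call was lost without DMSO replicate 2 (adjusted p = 0.144), DMSO replicate 3 (0.113), αKG replicate 1 (0.203) or αKG replicate 2 (0.255), fits in which 0 to 4 of all genes passed.

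*Slc25a38* (ENSMUSG00000032519, chr9:120110374-120124504, plus strand) fell in all 3 αKG libraries. Its normalized counts were 102, 95 and 97 with DMSO against 51, 48 and 56 with αKG, so the groups were far apart and αKG replicate 3 lay with the other two. Means were 98.0 ± 3.61 and 51.7 ± 4.04 (SD, n = 3 each), and the log2 fold change stood at −0.91 ± 0.15 (SE; adjusted p = 0.0223, limma). Across the alternatives the log2 fold change ran from −1.03 to −0.86 and the adjusted p from 0.00162 to 0.255. Leaving out DMSO replicate 1, 2 or 3 gave adjusted p-values of 0.0982, 0.202 and 0.209, and leaving out αKG replicate 1 or 2 gave 0.203 and 0.255. Markers of red blood cell precursors, in which *Slc25a38* is known to be needed, were close to 0 in both groups: *Alas2*, the erythroid first enzyme of haem synthesis, had 2, 4 and 1 normalized counts with DMSO against 0, 3 and 0 with αKG, and of the 7 markers listed for these cells only *Alas2* and *Epor* were in the table.

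**Figure D2:**
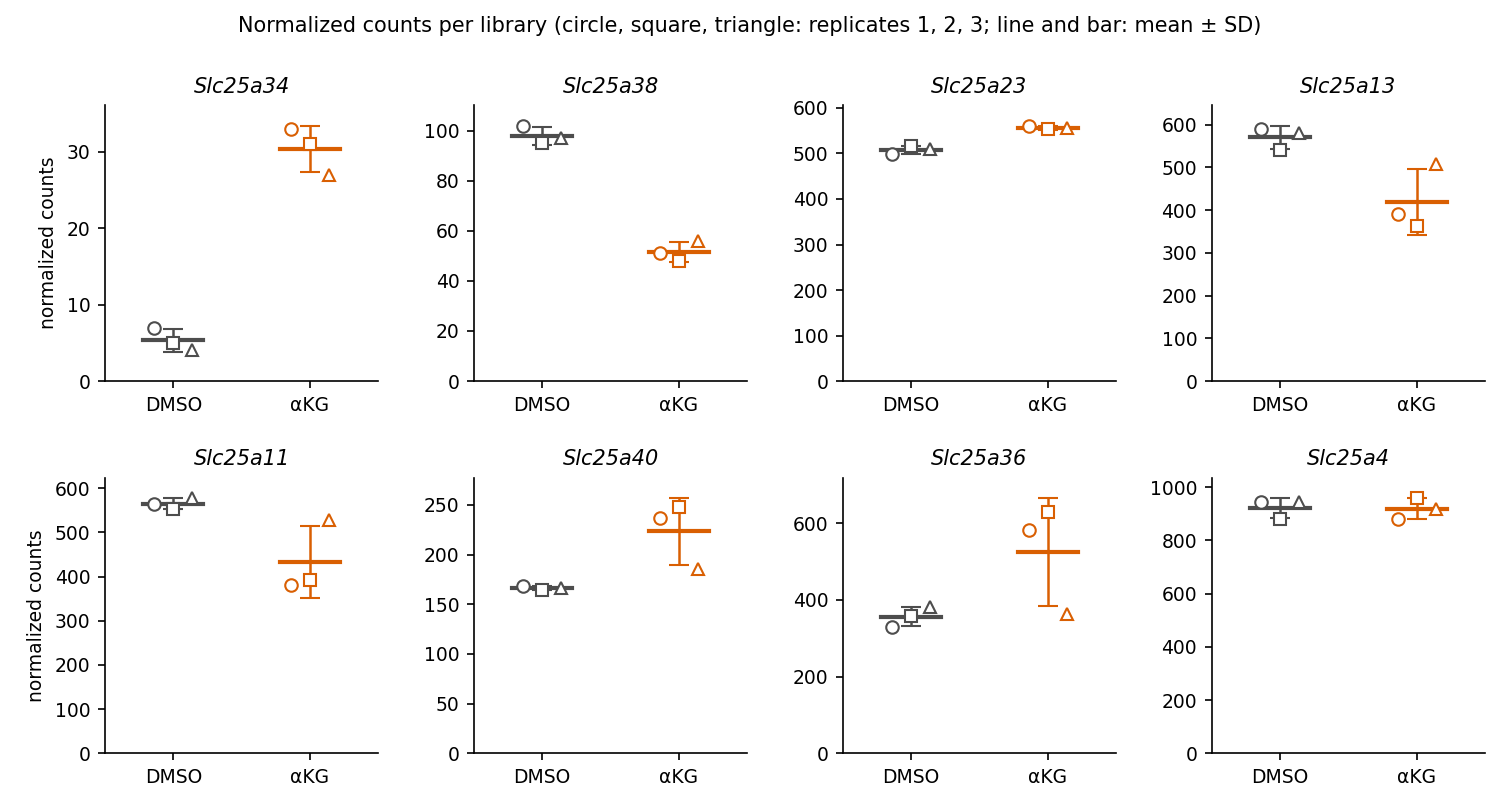
Normalized counts of 8 SLC25 members in each library, DMSO in grey and αKG in orange, with circles, squares and triangles for replicates 1, 2 and 3 and the line and bar giving mean ± SD (n = 3). In *Slc25a34* and *Slc25a38* the 3 αKG libraries lie together, whereas in *Slc25a13*, *Slc25a11*, *Slc25a40* and *Slc25a36* the triangle of αKG replicate 3 lies nearer to DMSO.

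Among the 6 carboxylate carriers, 1 was called (*Slc25a34*), 2 had an unadjusted p under 0.05 and 4 passed without αKG replicate 3, 2 in each direction. Over all genes the shares were 3.78% called, 28.1% at an unadjusted p under 0.05 and 37.2% without αKG replicate 3. The oxoglutarate carrier *Slc25a11* (ENSMUSG00000014606, chr11:70644196-70647479, minus strand) had 564, 554 and 578 normalized counts with DMSO against 381, 392 and 528 with αKG. All αKG libraries were below all DMSO libraries, by a wide margin in replicates 1 and 2 and a narrow one in replicate 3. The log2 fold change was −0.40 ± 0.12 (SE; adjusted p = 0.0823, limma) and did not pass, whereas without αKG replicate 3 it was −0.55 with adjusted p = 0.000893. Of the exonic bases of *Slc25a11*, 8.92% (189 bases) overlap *Rnf167* on the other strand, and whether the counting used strand is not given in the sources used here. *Slc25a35*, a relative of *Slc25a34* by sequence, had 22, 25 and 21 normalized counts with DMSO against 28, 17 and 14 with αKG. Its αKG libraries fell on both sides of the DMSO range (log2 fold change −0.25 ± 0.31 SE; adjusted p = 0.614, limma), and 31.3% of its exonic bases overlap *Rangrf* on the opposite strand. The remaining 3 are the citrate carrier *Slc25a1*, the dicarboxylate carrier *Slc25a10* and *Slc25a30*, which is placed in this group by sequence likeness only. Their log2 fold changes ran from −0.40 to 0.15, and their groups overlapped.

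Of the 9 amino acid carriers, 7 had a negative log2 fold change, and 1 was called (*Slc25a38*). Without αKG replicate 3, 5 (55.6%) passed and all 5 were lower, against 37.2% of all genes (19.3% higher, 17.9% lower). Among protein-coding genes 42.1% passed, 2557 higher and 3450 lower of 14257. *Slc25a12*, the aspartate/glutamate carrier that prevails in muscle and brain, had 775, 846 and 851 normalized counts with DMSO against 678, 691 and 786 with αKG. One αKG library lay inside the DMSO range, and the log2 fold change of −0.20 ± 0.08 (SE; adjusted p = 0.142, limma) did not pass; without αKG replicate 3 it was −0.27 (adjusted p = 0.0118). Its paralog *Slc25a13*, the form that prevails in liver, had 591, 540 and 581 with DMSO against 390, 362 and 507 with αKG. Here the groups did not overlap, and αKG replicate 3 was the nearest to DMSO (log2 fold change −0.46 ± 0.12 SE; adjusted p = 0.0616, limma, and 0.00140 without that library). The glutamate carriers were low: *Slc25a22* had 51, 45 and 54 with DMSO against 59, 54 and 49 with αKG. Its relative *Slc25a18* had 3, 1 and 2 with DMSO against 4, 0 and 0 with αKG, which is too few reads to compare groups. The other 4, for ornithine (*Slc25a15*, *Slc25a2*), basic amino acids (*Slc25a29*) and branched-chain amino acids (*Slc25a44*), ran from −0.46 to 0.26 and did not pass.

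Carriers of adenine nucleotides and phosphate included the members with the highest levels. None of the 7 was called, 1 had an unadjusted p under 0.05, and only *Slc25a5* passed without αKG replicate 3. Over all genes 28.1% had an unadjusted p under 0.05 and 37.2% passed without αKG replicate 3. *Slc25a4*, the ADP/ATP carrier of heart and skeletal muscle, had 943, 880 and 944 normalized counts with DMSO against 880, 959 and 919 with αKG. The groups overlapped fully, and the log2 fold change was −0.00 ± 0.07 (SE), with a 95% interval from −0.15 to 0.14. *Slc25a5*, the ADP/ATP carrier of dividing and non-muscle cells, had 531, 492 and 499 with DMSO against 425, 451 and 507 with αKG, so that αKG replicate 3 lay inside the DMSO range (log2 fold change −0.14 ± 0.09 SE; adjusted p = 0.310, limma, and 0.0299 without that library). *Slc25a31*, the testis form, had at most 3 normalized counts in any library. The phosphate carrier *Slc25a3* had the highest mean of all members, 946 ± 10.3 in DMSO and 950 ± 44.8 in αKG (SD, n = 3 each).

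The ATP-Mg/phosphate carriers are opened by calcium and set the adenine nucleotide content of the matrix. *Slc25a23* had 499, 516 and 510 normalized counts with DMSO against 561, 553 and 556 with αKG. Its αKG libraries were all above DMSO and close to each other, with a log2 fold change of only 0.13 ± 0.07 (SE; adjusted p = 0.234, limma). *Slc25a24* had 223, 221 and 186 with DMSO against 174, 203 and 213 with αKG, without separation (log2 fold change −0.09 ± 0.12 SE). *Slc25a25* had 76, 60 and 61 with DMSO against 99, 76 and 90 with αKG; the lowest αKG library equalled the highest DMSO library, and the log2 fold change was 0.42 ± 0.17 (SE; adjusted p = 0.149, limma).

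Per kilobase of exon, the order of levels in DMSO began with *Slc25a4* (392 normalized counts per kb), *Slc25a5* (308), *Slc25a11* (267), *Slc25a3* (170) and *Slc25a13* (150), against a median of 33 and a minimum of 0.470 over the members. In αKG the first of these stood at 391, *Slc25a5* at 280 and *Slc25a11* at 205. Across the 43 members the mean over all 6 libraries was 100 or more in 25, between 10 and 100 in 14 and below 10 in 4. Those at 100 or more included 7 with a positive and 18 with a negative log2 fold change, and none was called, 9 having an unadjusted p under 0.05. Over all protein-coding genes 6556 were positive and 7701 negative, and 30.9% had an unadjusted p under 0.05. Genes of the whole table with a mean of at least 10 had a median log2 fold change of −0.03. The split among all genes at 100 or more was not computed. Both called members were below 100.

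None of the 4 iron and glutathione carriers was called, and 3 had a positive and 1 a negative log2 fold change. *Slc25a37*, mitoferrin 1, which supplies iron for haem, had 103, 119 and 122 normalized counts with DMSO against 178, 172 and 119 with αKG. Its αKG replicates 1 and 2 were well above DMSO and replicate 3 was inside the range (log2 fold change 0.43 ± 0.17 SE; adjusted p = 0.141, limma, and 0.00580 without that library). Mitoferrin 2, *Slc25a28*, had 127, 127 and 123 with DMSO against 168, 125 and 133 with αKG, with overlap (log2 fold change 0.16 ± 0.14 SE). The glutathione carrier *Slc25a39* had 264, 262 and 289 with DMSO against 217, 203 and 280 with αKG, and αKG replicate 3 lay among the DMSO libraries (log2 fold change −0.23 ± 0.13 SE; adjusted p = 0.262, limma, and 0.0110 without it). Its paralog *Slc25a40* had 168, 164 and 166 with DMSO against 237, 248 and 185 with αKG, all above DMSO (log2 fold change 0.41 ± 0.13 SE; adjusted p = 0.0848, limma, and 0.00217 without αKG replicate 3).

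The 9 carriers of cofactors and pyrimidine nucleotides contained no call and 4 members with an unadjusted p under 0.05, 1 higher and 3 lower. The share of all genes at that threshold was 28.1%. The pyrimidine nucleotide carrier *Slc25a36* had 330, 358 and 381 normalized counts with DMSO against 582, 628 and 364 with αKG, which placed αKG replicate 3 inside the DMSO range (log2 fold change 0.52 ± 0.18 SE; adjusted p = 0.105, limma, and 0.00120 without it). *Slc25a33*, with a like substrate, had 73, 51 and 42 with DMSO against 75, 97 and 42 with αKG and showed no separation (log2 fold change 0.32 ± 0.31 SE). The others reported here ran from −0.37 for *Slc25a16* to 0.15 for the coenzyme A carrier *Slc25a42*, and the NAD carrier *Slc25a51* was at −0.24 (adjusted p = 0.131, limma). Without αKG replicate 3 both *Slc25a16* and *Slc25a51* passed (adjusted p = 0.00156 and 0.0106, limma).

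No member passed among the 3 carnitine carriers and their relatives, the 2 uncoupling-like carriers or the 3 without a settled substrate. *Slc25a20*, which brings acylcarnitines in for fatty acid oxidation, had means of 318 ± 13.5 in DMSO and 297 ± 66.9 in αKG (SD, n = 3 each; log2 fold change −0.12 ± 0.14 SE; adjusted p = 0.596, limma, and 0.0193 without αKG replicate 3). The remaining 7 ran from −0.23 to 0.86 on the log2 scale. The highest of these was *Slc25a45*, with 9, 6 and 6 normalized counts with DMSO against 12, 15 and 13 with αKG (adjusted p = 0.144, limma).

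**Figure D3:**
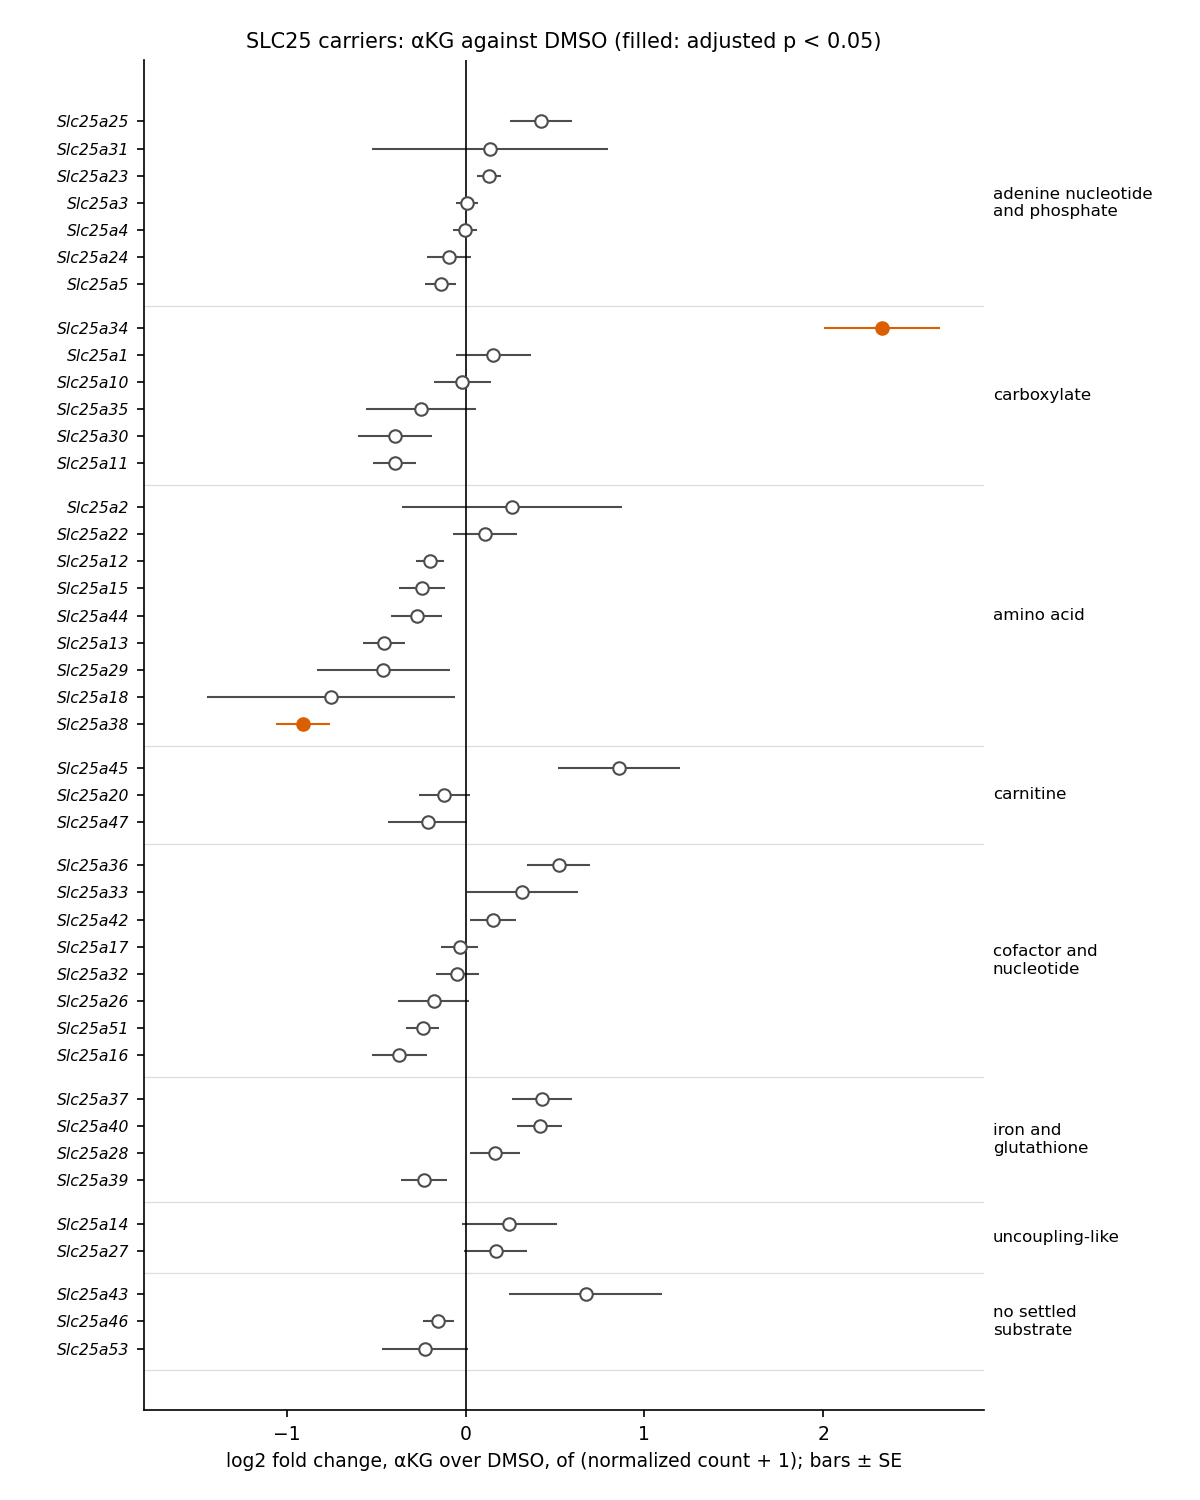
Log2 fold change (αKG against DMSO, log2(normalized count + 1)) of the SLC25 members reported here, by the solute they carry, with bars for ± SE of the limma fit and filled points for an adjusted p under 0.05. *Slc25a34* at 2.33 and *Slc25a38* at −0.91 are the members past the test.

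Ratios within a pair of related carriers compare genes inside a library. For 8 pairs the log2 ratio was compared by a two-sided exact permutation test, which with 3 against 3 libraries cannot go below 0.1. Between *Slc25a34* and *Slc25a35* it was −1.93 ± 0.35 with DMSO and 0.65 ± 0.37 with αKG (SD, n = 3 each; exact p = 0.1), and *Slc25a34*, the lower gene of the pair in every DMSO library, was the higher in every αKG library. The glutathione carrier ratio *Slc25a39*/*Slc25a40* was 0.71 ± 0.08 with DMSO and 0.06 ± 0.47 with αKG (SD, n = 3 each; exact p = 0.1). Its values in αKG were −0.13, −0.29 and 0.60, against 0.65 to 0.80 in DMSO, so αKG replicate 3 was just outside the DMSO range. *Slc25a24*/*Slc25a25* was 1.67 ± 0.17 with DMSO and 1.15 ± 0.31 with αKG (SD, n = 3 each; exact p = 0.1), also without overlap, but with quantile normalization the difference of −0.52 became −0.40 (exact p = 0.2). After adjustment over the 8 pairs these 3 were at 0.267. The other 5 overlapped, with exact p from 0.2 to 0.7, and included *Slc25a4*/*Slc25a5* (0.86 ± 0.05 and 1.00 ± 0.12) and *Slc25a12*/*Slc25a13* (0.53 ± 0.13 and 0.79 ± 0.15).

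**Figure D4:**
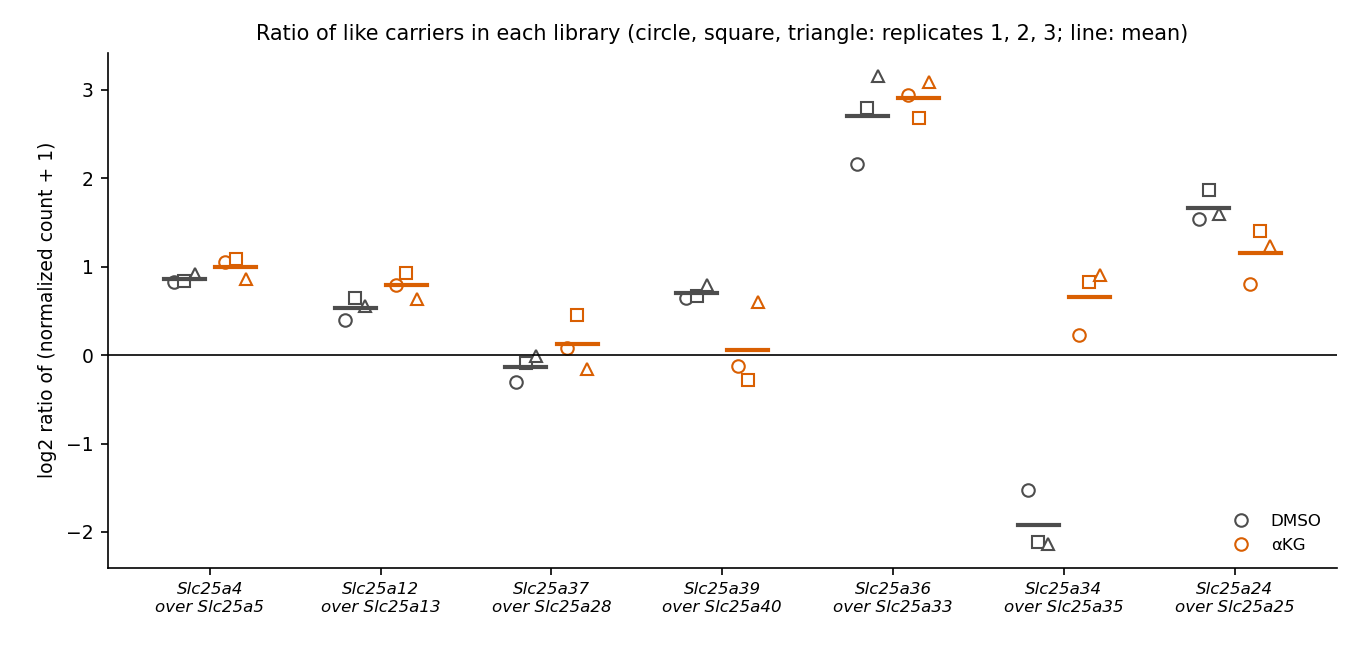
Log2 ratio of normalized counts plus 1 within pairs of related carriers, 1 point a library (circle, square and triangle for replicates 1, 2 and 3) with a line at the mean, DMSO in grey and αKG in orange; *Slc25a22*/*Slc25a18* is left out because *Slc25a18* had at most 4 normalized counts. *Slc25a34*/*Slc25a35*, *Slc25a39*/*Slc25a40* and *Slc25a24*/*Slc25a25* do not overlap between groups.

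The summed normalized counts of the 43 members made up 0.244%, 0.243% and 0.249% of the DMSO libraries and 0.221%, 0.222% and 0.242% of the αKG libraries. All αKG libraries were lower, by a mean difference of −0.0169 percentage points (0.245 ± 0.00315 and 0.228 ± 0.0117, SD, n = 3 each; two-sided exact permutation p = 0.1, the smallest these group sizes allow). As a sum of normalized counts the groups were 10013 ± 119 and 9481 ± 425 (exact permutation p = 0.2). *Slc25a3*, *Slc25a4*, *Slc25a12*, *Slc25a46* and *Slc25a13* together held 39.6% of the DMSO sum.

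Related genes outside the *Slc25a* symbols were followed in 4 lists. Of the uncoupling proteins and mitochondrial carrier homologues, 4 of 5 were in the table. *Ucp2*, which returns protons to the matrix and can export malate and aspartate, rose from 82, 98 and 84 normalized counts to 216, 222 and 258 (log2 fold change 1.39 ± 0.13 SE; adjusted p = 0.00266, limma) and was as high in αKG replicate 3 as in the others. *Ucp3*, its relative in muscle, had 41, 52 and 67 with DMSO against 106, 82 and 153 with αKG (log2 fold change 1.06 ± 0.25 SE; adjusted p = 0.0507, limma). The groups also did not overlap for *Mtch1* and *Mtch2*, both lower in αKG and not called. Groups without overlap were present in 28.3% of all genes. Without αKG replicate 3 all 4 passed, 2 in each direction, against 37.2% of all genes.

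Carrier proteins are made in the cytosol, pass the outer membrane through the TOM complex and enter the inner membrane through the TIM22 complex. None of the 13 genes of this route was called, while 1 was higher and 5 lower at an unadjusted p under 0.05, and 8 passed without αKG replicate 3, 1 higher and 7 lower. Over all genes the corresponding shares were 28.1% (15.7% higher, 12.4% lower) and 37.2% (19.3% higher, 17.9% lower). Among protein-coding genes they were 30.9% and 42.1%. *Timm29*, a TIM22 subunit, had 376, 406 and 405 normalized counts with DMSO against 224, 273 and 330 with αKG (adjusted p = 0.0533, limma). Other transporters of both membranes contained no call among 22, with 2 higher and 4 lower unadjusted. *Sfxn1*, a serine carrier, had 114, 111 and 103 with DMSO against 215, 230 and 118 with αKG (adjusted p = 0.0891, limma). Enzymes that use the carried solutes contained no call among 21, with 1 higher and 2 lower unadjusted. The shuttle enzymes *Got1*, *Got2* and *Mdh1* were lower in all αKG than in all DMSO libraries, with log2 fold changes of −0.19, −0.18 and −0.15 and no call, whereas the fourth enzyme of the shuttle, *Mdh2*, had 757, 738 and 747 normalized counts with DMSO against 721, 764 and 737 with αKG (log2 fold change −0.01 ± 0.06 SE). Groups did not overlap for 4 of the 21 enzymes (19%), 3 lower and 1 higher. Over all genes that share was 28.3% (13.7% higher, 14.6% lower). In each of these last 2 lists 10 genes passed without αKG replicate 3.

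Among the marker lists of cell types, most endothelial markers passed the test with all 6 libraries and nearly all others did not. Without αKG replicate 3, 5 of 8 cardiomyocyte markers passed (4 higher, 1 lower) and 6 of 8 fibroblast markers, all higher. All 5 epicardial markers passed as higher, all 6 endothelial markers passed (1 higher, 5 lower), and 3 of 5 mural markers did (2 higher, 1 lower). No macrophage or erythroid marker passed, and the share of all genes was 37.2%. With all 6 libraries none of 8 cardiomyocyte markers was called, and their summed normalized counts were 73649 to 76422 with DMSO against 106645, 109805 and 78263 with αKG. Most of this sum was *Ttn*, and the other 7 summed to 22080 to 22629 with DMSO against 26339, 25669 and 22694 with αKG. Log2 fold changes were 0.45 for *Ttn*, 0.27 for *Ryr2*, 0.15 for *Myl7*, 0.13 for *Actn2* and 0.13 for *Myh6*. They were 0.07 for *Tnnt2*, 0.00 for *Myl2* and −0.15 for *Pln*. *Ttn*, *Ryr2* and *Actn2* were higher, and *Pln* lower, in all αKG than in all DMSO libraries. Fibroblast markers summed to 3211 to 3393 with DMSO against 7183, 7012 and 3265 with αKG, with none of 8 called. Log2 fold changes were 1.10, 0.85 and 0.76 for the collagens *Col1a2*, *Col1a1* and *Col3a1*. They were 0.55 for *Dcn*, 0.31 for *Pdgfra*, 0.15 for *Postn*, 0.08 for *Lum* and −0.23 for *Tcf21*. Epicardial markers, none of 5 called, summed to 109 to 125 with DMSO against 503, 502 and 73 with αKG. In the sums of these 3 lists αKG replicate 3 was nearer to the DMSO libraries than the other αKG libraries were. Endothelial markers summed to 1370 to 1500 with DMSO against 696, 622 and 906 with αKG, and 5 of 6 were called lower, against 0.952% of all genes. The sixth, *Tek*, had 65, 71 and 58 with DMSO against 115, 96 and 54 with αKG (adjusted p = 0.351, limma, and 0.0109 without αKG replicate 3). Groups without overlap, found also for the 2 called carriers, are favoured by a call and were present in 28.3% of all genes. Mural markers summed to 3052 to 3149 with DMSO against 3515, 3064 and 3308 with αKG, with 1 of 5 called (*Cspg4*, higher), and macrophage markers summed to at most 38 in any library. The part of cell composition in the carrier values was not tested.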

How the data were processed

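The 6 libraries were prepared from RNA of the cultured cells, 3 per group as the labels give them. The deposited table holds counts normalized by the authors with DESeq2 1.30.1 and rounded to whole numbers (treated as a score here, since count models need raw reads); the submitters' processing notes also name FastQC 0.11.8, Trimmomatic 0.39, STAR 2.7.10a, Picard 2.27.1 and featureCounts 2.0.3 on mm10/GRCm38. Only genes with at least 2 normalized counts in some library were listed, and column totals differed by up to 2.41%. All 20066 genes were tested with limma 3.58.1 (R 4.3.3) on log2(value + 1), with a variance trend, treatment as the only term and a threshold of 0.05 after Benjamini-Hochberg adjustment, and the procedure was tested on simulated data. Pair ratios and sums were compared by exact permutation with SciPy 1.17.1. Exon lengths came from GENCODE M21 (GRCm38) and start-site windows from RefSeq. Depth was estimated from the spacing of low values, since raw totals were not used here, and the small number of libraries limits precision.

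Members and lists were chosen with earlier results of these data known. Values in every library are given for called members, *Slc25a11*, *Slc25a34*, the 3 highest per kb, all pair members, and up to 5 rises and 5 falls among members averaging 100 or more whose groups did not overlap, of which only 2 and 3 existed. *Slc25a45* and the non-members *Ucp2*, *Ucp3*, *Timm29*, *Sfxn1*, *Got1*, *Got2*, *Mdh1*, *Mdh2*, *Tek* and *Alas2*, and the other members given with means or fold changes, were picked after their values were seen. Alternatives were a filter on the mean, other pseudocounts, a common total, quantile normalization, no variance trend, limma-voom on estimated reads, a replicate block, averaged DMSO replicates 2 and 3, and leaving out each library. The values of 1 member are not reported here, although it is included in the counts.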

Additional observations from a re-analysis of the deposited data

How the results depend on the processing

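The count of members called (2, 1 higher and 1 lower) depended on the libraries more than on the scale. It was 3 (1 higher, 2 lower) after removing genes with a mean under 10, with a pseudocount of 5 and with a common total, 2 with a pseudocount of 0.1, quantile normalization or limma-voom on estimated reads, 1 (1 higher, 0 lower) without the variance trend, 0 (0 higher, 0 lower) with DMSO replicates 2 and 3 averaged, and 13 (6 higher, 7 lower) at an unadjusted p under 0.05. Leaving out 1 library gave 0 to 19 calls, 0 to 5 higher and 0 to 14 lower: 1 without DMSO replicate 1 (1 higher, 0 lower), 0 without DMSO replicate 2 or 3 or αKG replicate 1 or 2, and 19 without αKG replicate 3. Over all genes limma called 759, 872 with the filter, 346 with a pseudocount of 0.1, 832 with a pseudocount of 5, 915 with a common total, 641 with quantile normalization, 27 without the trend, 357 with voom, 19 with the averaged replicates, 152, 3 and 4 without DMSO replicates 1, 2 and 3, 0 and 0 without αKG replicates 1 and 2 (3324 and 3244 genes at an unadjusted p under 0.05, of which 8 and 8 were members), and 7466 without αKG replicate 3. Higher genes were 74.8% of the calls, 66.3% with a common total and 51.8% without αKG replicate 3; the cause was not tested.

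With the replicate number as a block, 0 members (0 higher, 0 lower) and 46 genes passed, with adjusted p of 0.0549 for *Slc25a34* and 0.0821 for *Slc25a38*; 5160 genes had an unadjusted p under 0.05. Deviations of same-numbered libraries from their group means correlated at −0.07, 0.14 and 0.00 over 13409 genes. With 3 libraries per group and αKG replicate 3 apart from its own group, these values cannot show whether the numbers pair the libraries.

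The uncoupling and homologue list had 1 call, 2 with a common total, 0 without the trend and 0 to 4 with a library left out. The insertion list had 0 calls, 1 with a common total and 0 to 8 with a library left out; both other lists had 0 to 10 with a library left out. The direction of small changes turned with quantile normalization for *Slc25a14* (−0.0760), *Slc25a22* (−0.0575), *Slc25a2* (−0.0866), *Slc25a31* (−0.21) and *Slc25a4* (0.0030), with a common total for *Slc25a3* (−0.0184) and with averaged DMSO replicates for *Slc25a2* (−0.0484). With a library left out, log2 fold changes spanned 0 for *Slc25a20* (−0.30 to 0.0006), *Slc25a2* (−0.40 to 0.68), *Slc25a32* (−0.11 to 0.0336), *Slc25a17* (−0.0617 to 0.0194), *Slc25a31* (−0.36 to 0.64), *Slc25a10* (−0.17 to 0.11), *Slc25a3* (−0.0326 to 0.0266) and *Slc25a4* (−0.0383 to 0.0263), and the *Slc25a36*/*Slc25a33* ratio difference spanned −0.0669 to 0.43. None of these was called with all libraries, and *Slc25a20* passed without αKG replicate 3 (−0.30). Of 641 member values under an alternative, 585 kept direction and side of the threshold, 14 no longer passed, 20 newly passed and 22 turned direction. At about 4 to 7 reads per DMSO library for *Slc25a34*, and at most 3 for *Slc25a31* and 4 for *Slc25a18* in any library, depth limits those members.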
